A study of Mus musculus with 8 samples.

Results

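MAP kinase cascades switch on the genes of some of their own inhibitors. In mouse neuroblastoma cells, 10 genes grouped as such negative feedback regulators were read here, without a test that the cascade switches on each. They are 5 dual-specificity phosphatases (Dusp1, Dusp4, Dusp5, Dusp6 and Dusp26), 3 Sprouty genes (Spry1, Spry2 and Spry4), the Sprouty-related gene Spred1 and the receptor-type tyrosine phosphatase gene Ptprr. They were taken by name, as the non-control probes whose RefSeq accession belongs to one of these genes, which gave 10 of 55681 probes, 1 per gene. The set was chosen by these names with the array values of all 4 groups already known, so every comparison below counts as used in the choice. All 10 genes passed the filter on dim signal and were among the 26262 genes tested.

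Growth factors that bind receptor tyrosine kinases load RAS with GTP, and RAS then starts the chain from RAF through MEK to ERK. Dual-specificity phosphatases remove the activating phosphates from ERK, JNK or p38, whereas Sprouty and Spred proteins act higher up, between the receptor and RAF. Many of these inhibitors are themselves transcribed in response to ERK, so that their messenger levels are widely read as an output of the pathway. In neuroblastoma and other neural crest cells the same cascade carries signals for growth and for neurite outgrowth.

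The study compared 4 groups of 2 one-colour arrays each, 8 arrays in all. N18TG2 is a mouse neuroblastoma line, and 2/4 is a clone of it that the labels describe as expressing ChAT, the enzyme that makes acetylcholine. Parental N18TG2 cells and the clone were each profiled untreated and after 1 µM all-trans retinoic acid (RA), a vitamin A derivative used to differentiate such cells. RA was given in medium with 1% serum, the growth medium had 10%, and the medium of the untreated cells is not stated. Culture of the clone included 200 µg/mL of the selection drug G418. So serum may go with RA, G418 goes with the clone, the clone is a single one, and the length of RA treatment is not stated. No label ties the replicates to separate cultures, so p-values and errors measure only the spread between these samples, which may be technical.

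On all 8 arrays the 75th percentile of the intensity, to which each array was scaled, lay between 264.8 and 1264. Clone RA replicate 1 had 71.8% of its probes well above background, against 47.8% to 62.8% on the other arrays. The parental RA and untreated clone arrays lay in row 1 of the slide and the other arrays in row 2. Slide row therefore cannot be told apart from any single comparison of 2 groups or from the difference between the RA responses of the lines, and it cancels only in the averages over both lines or both treatments. All 14 sympathetic neuroblast markers were well above background on all arrays. The extraction protocol names hippocampus, and of 10 hippocampal neuron markers 3 to 6 were above background per array, with Neurod6, Gad1 and Prox1 on 0 arrays. Of the 10 glial markers 4 to 7 were above background per array, and of the 10 fibroblast, vessel and microglial markers 3 to 7, with Olig2, Foxd3, Lum, Cdh5 and Cx3cr1 on 0 arrays. The Chat probe read -3.73 and -2.71 in the untreated clone against -2.63 and -4.57 in the untreated parental line (log2 scale) (limma adjusted p = 0.897), and 1.10 and -2.58 against -3.22 and -5.06 under RA (adjusted p = 0.0996), so this probe gave no called difference between the lines under either treatment. Whether it can read the introduced ChAT is not given in the sources used here, so it is no check of the label.

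Promoter sequences were matched in RefSeq (GRCm38.p6) for 7 of the 10 genes, in 10 windows of 300 bases that run from 250 bases before a transcript start to 50 after it. The 250 bases before the start are shown for 5 windows. Dusp1 and Dusp5 are shown for the motifs found in them, Dusp6 and Spry1 belong to the genes that read lower with RA in both lines, and Ptprr had the widest range of levels. The Ptprr window shown is among those that hold a motif, whereas the Ptprr windows starting at 116018113 and 116143648 hold none. Capitals mark motif matches, and the orientation is 5′ to 3′ on the gene's strand.
Dusp1, chr17:26508473-26508722, minus strand: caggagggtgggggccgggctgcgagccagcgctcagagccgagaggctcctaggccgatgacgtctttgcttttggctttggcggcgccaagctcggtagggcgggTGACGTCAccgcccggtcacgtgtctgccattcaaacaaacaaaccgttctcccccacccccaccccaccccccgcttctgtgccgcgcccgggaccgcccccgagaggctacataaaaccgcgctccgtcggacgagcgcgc
Dusp5, chr19:53528895-53529144, plus strand: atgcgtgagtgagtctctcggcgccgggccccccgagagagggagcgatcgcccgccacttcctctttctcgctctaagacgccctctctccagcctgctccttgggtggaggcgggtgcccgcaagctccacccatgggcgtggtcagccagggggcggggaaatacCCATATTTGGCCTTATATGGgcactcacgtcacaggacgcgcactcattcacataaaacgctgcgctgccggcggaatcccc
Dusp6, chr10:99262981-99263230, plus strand: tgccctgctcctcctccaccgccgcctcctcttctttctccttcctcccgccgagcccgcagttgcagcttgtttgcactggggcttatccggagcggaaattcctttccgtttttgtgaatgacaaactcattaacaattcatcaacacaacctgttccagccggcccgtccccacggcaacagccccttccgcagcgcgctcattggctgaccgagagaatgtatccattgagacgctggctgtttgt
Spry1, chr3:37639697-37639946, plus strand: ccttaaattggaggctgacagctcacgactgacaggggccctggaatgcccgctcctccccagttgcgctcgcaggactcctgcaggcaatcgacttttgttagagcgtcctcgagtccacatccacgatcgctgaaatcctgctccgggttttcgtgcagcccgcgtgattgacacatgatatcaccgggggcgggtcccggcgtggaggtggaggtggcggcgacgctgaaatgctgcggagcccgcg
Ptprr, 1 of 4 start sites in the table, chr10:116177008-116177257, plus strand: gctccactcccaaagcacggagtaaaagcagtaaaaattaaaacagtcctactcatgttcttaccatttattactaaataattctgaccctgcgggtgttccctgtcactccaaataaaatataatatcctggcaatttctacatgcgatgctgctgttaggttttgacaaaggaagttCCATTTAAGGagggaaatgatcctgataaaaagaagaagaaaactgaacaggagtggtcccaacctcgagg

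The 300-base windows were searched on both strands for 5 motifs. The Dusp1 window held the cAMP response element TGACGTCA, first base at -143 from the start, a motif present in 1.79% of the 32851 mouse promoter windows. The Dusp5 window held 2 CArG boxes, the binding site of serum response factor, side by side at -82 and -72, and 1.63% of all windows held at least 1. A CArG box also lay in 2 overlapping Ptprr windows, which share these bases, at -71 in the one shown. The Ets motif CCGGAA, in 14.9% of all windows, was found in the Spry2 window alone, 34 bases after the start. The AP-1 motif TGANTCA (7.81% of all windows) and the RA response element made of 2 direct repeats with 5 bases between them (0.0974%) matched none of the 10 windows. No motif overlapped another, and the Dusp6, Spry1 and Spred1 windows held none of the 5.

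Values of the 10 genes are given as a description, with no p-value, and the limma calls counted further on are not read as tests of them. Levels are log2 of the background-subtracted intensity minus the 75th percentile of the array, so 0 is the 75th percentile of that array. A level is compared only with other arrays for the same probe. Differences are log2 differences with the standard error of a linear model fitted to all 8 arrays with limma (n = 2 arrays per group).

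**Figure D1:**
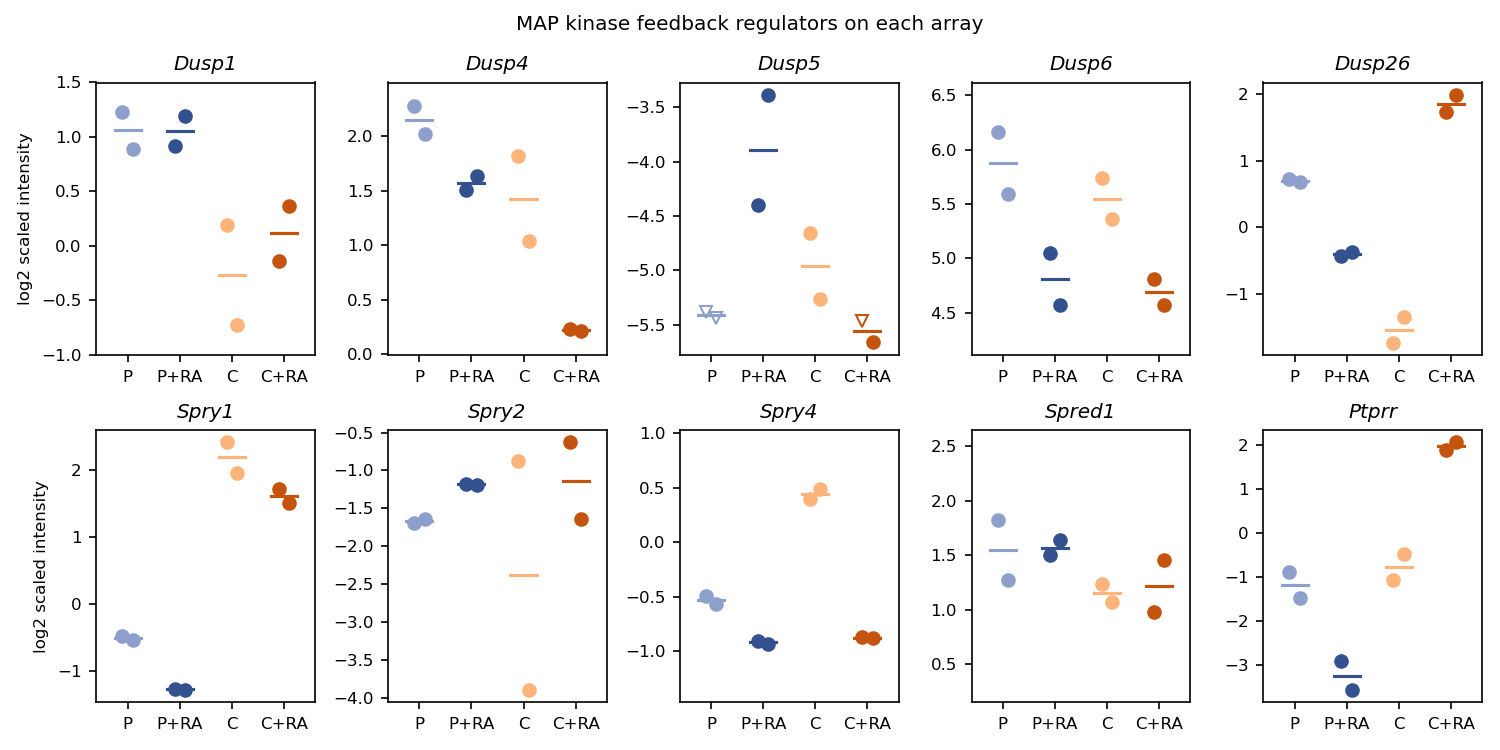
Level of each of the 10 genes on each array (y axis, log2 scaled intensity, a separate range per gene). P is the parental line, C the 2/4 clone, and +RA marks retinoic acid. Points are single arrays, bars are means of 2 arrays, and open triangles are arrays on which the probe was not well above background. Ptprr and Dusp26 are highest in the clone with RA, and Spry1 is high in all 4 clone arrays.

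The widest range belonged to Ptprr, which encodes a receptor-type tyrosine phosphatase that binds ERK and p38 through a kinase interaction motif and is expressed in neurons. Its levels were -0.90 and -1.49 in untreated parental cells and -2.92 and -3.58 with RA. In the clone they were -1.07 and -0.48 untreated and 1.89 and 2.06 with RA. The untreated lines overlapped, the parental RA arrays were below every other array, and the clone RA arrays were above every other array. With RA the level was 4.14-fold lower in the parental line (-2.05 ± 0.38) and 6.72-fold higher in the clone (2.75 ± 0.38). Under RA the clone therefore stood 37.4-fold above the parental line (5.22 ± 0.38), against 1.34-fold without RA (0.43 ± 0.38). With normexp background correction the difference under RA was 4.32. Averaged over both treatments, where slide row cancels, Ptprr was higher in the clone by 2.83 ± 0.27.

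Dusp26 encodes an atypical dual-specificity phosphatase that lacks the kinase-binding domain of the classical MAP kinase phosphatases and is known from neuronal and neuroblastoma cells. It read 0.72 and 0.68 in untreated parental cells and -0.43 and -0.37 with RA. In the clone it read -1.73 and -1.35 untreated and 1.73 and 1.99 with RA. No 2 groups overlapped, and the order was untreated clone, parental with RA, untreated parental and clone with RA from low to high. The RA difference was -1.10 ± 0.27 in the parental line (2.14-fold lower) and 3.40 ± 0.27 in the clone (10.6-fold higher). The line difference turned with treatment, from 4.71-fold lower in the untreated clone (-2.24 ± 0.27) to 4.80-fold higher under RA (2.26 ± 0.27), so that the average line difference was 0.01 ± 0.19. The average RA difference was 1.15 ± 0.19.

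For both genes the RA difference of the clone minus that of the parental line was large, 4.80 ± 0.53 for Ptprr and 4.50 ± 0.39 for Dusp26. Slide row goes with this quantity and cannot be told apart from it. Leaving out any 1 array gave 4.46 to 5.13 for Ptprr and 4.31 to 4.69 for Dusp26, and normexp background correction gave 3.97 and 4.02. The summed scaled level of the 14 neuroblast markers was 87.3 and 97.1 in parental cells with RA, 140 and 202 in untreated parental cells, 193 and 206 in the untreated clone, and 288 and 319 in the clone with RA. It was lowest and highest in the same groups as Ptprr. Its part in these differences was not tested.

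**Figure D2:**
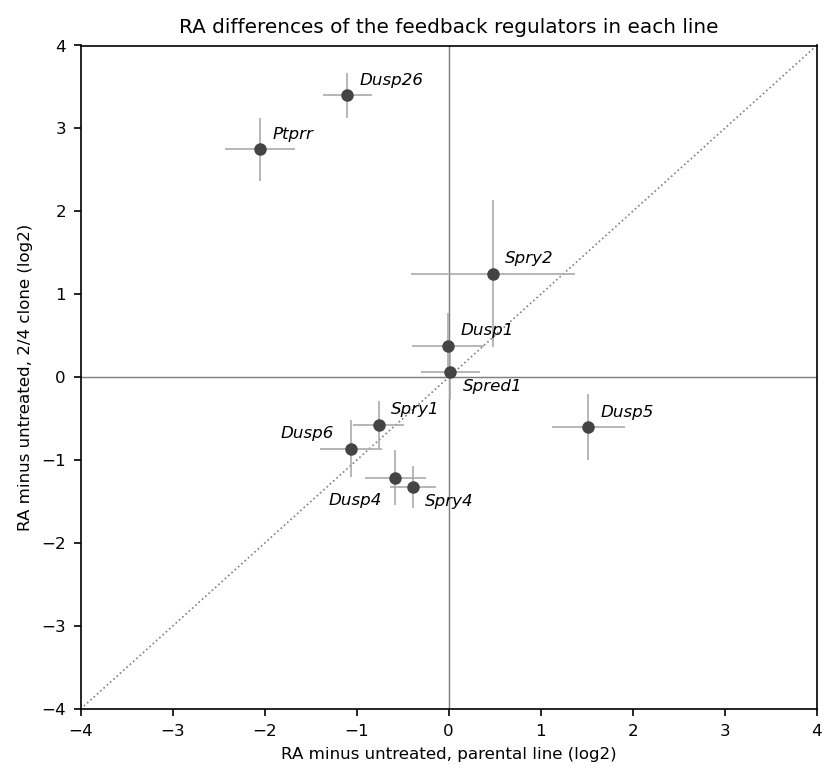
RA minus untreated in the parental line (x axis) against RA minus untreated in the 2/4 clone (y axis), log2, for the 10 genes. Points are differences of means of 2 arrays, error bars are standard errors of the fit, and the dotted line marks equal differences. Ptprr and Dusp26 lie at upper left, with lower levels in the parental line and higher levels in the clone, and Dusp4, Dusp6, Spry1 and Spry4 lie at lower left.

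A group of 4 genes read lower with RA in both lines with no overlap between the 2 RA and the 2 untreated arrays of a line. These were Dusp4, Dusp6, Spry1 and Spry4. Across all genes tested 8.78% had this pattern, and since the members were chosen with these values known, nothing is read from their count.

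Dusp6 encodes the cytoplasmic phosphatase MKP-3, which acts on ERK and whose gene is a well-known target of ERK and Ets factors. It read 6.16 and 5.59 in untreated parental cells and 5.05 and 4.57 with RA. In the clone it read 5.74 and 5.36 untreated and 4.81 and 4.57 with RA. The lines overlapped under either treatment, and RA arrays were lower in each line. The RA difference was -1.06 ± 0.34 in the parental line and -0.86 ± 0.34 in the clone, with an average of -0.96 ± 0.24, a 1.95-fold lower level. In the clone it was -0.47 with quantile normalization.

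Dusp4 encodes MKP-2, a nuclear phosphatase of ERK and JNK. Its levels were 2.28 and 2.02 in untreated parental cells, 1.51 and 1.64 in parental cells with RA, 1.82 and 1.04 in the untreated clone, and 0.23 and 0.21 in the clone with RA. The clone with RA lay below all other arrays. The RA difference was -0.58 ± 0.33 in the parental line and -1.21 ± 0.33 in the clone (2.31-fold lower). Without clone untreated replicate 1 or 2 the clone value was -0.82 or -1.60. The clone averaged 2.05-fold below the parental line over both treatments (-1.04 ± 0.23).

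Spry4 and Spry1 encode Sprouty proteins, membrane-associated inhibitors of the step from receptor to RAS and RAF. Spry4 read -0.49 and -0.57 in untreated parental cells and -0.91 and -0.93 with RA, and 0.40 and 0.49 in the untreated clone and -0.87 and -0.88 with RA. The untreated clone stood above every other array, and the 4 RA arrays lay between -0.93 and -0.87. The RA difference was -1.32 ± 0.25 in the clone (2.49-fold lower) and -0.39 ± 0.25 in the parental line. The untreated lines differed by 0.98 ± 0.25 and the lines under RA by 0.05 ± 0.25. The summed level of the 10 hippocampal neuron markers was also highest in the untreated clone, 13.2 and 13.5 against 4.70 to 6.07 in the other groups, and its part was not tested.

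Spry1 read higher in the clone under both treatments. It read -0.48 and -0.54 in untreated parental cells and -1.26 and -1.28 with RA, against 2.41 and 1.96 in the untreated clone and 1.72 and 1.51 with RA. Every clone array exceeded every parental array. The clone was 6.47-fold higher without RA (2.69 ± 0.28) and 7.40-fold higher with it (2.89 ± 0.28). The average line difference of 2.79 ± 0.20 lay between 2.55 and 2.90 under all 15 alternatives run. With RA the level was lower by a smaller step, -0.76 ± 0.28 in the parental line and -0.57 ± 0.28 in the clone. The summed level of the 10 glial markers was 0.678 to 0.765 in the clone and 0.959 to 1.90 in the parental line, and its part was not tested. Such a sum follows the brightest markers. The median average line difference of the 6 glial markers tested was 0.04, with 0 called higher and 2 lower, so the list as a whole was not lower in the clone.

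Dusp1 encodes MKP-1, a nuclear phosphatase that prefers JNK and p38 and is made as an immediate early gene. It read 1.23 and 0.89 in untreated parental cells and 0.92 and 1.19 with RA, against 0.19 and -0.73 in the untreated clone and -0.14 and 0.37 with RA. All 4 clone arrays lay below all 4 parental arrays, while treated and untreated arrays overlapped in each line. The clone averaged 2.19-fold lower (-1.13 ± 0.27), and the average RA difference was 0.19 ± 0.27.

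Dusp5 encodes a nuclear phosphatase specific for ERK, and its probe was dim. It was not well above background on either untreated parental array (-5.38 and -5.44) or on clone RA replicate 1 (-5.46). It was above background with RA in the parental line (-4.40 and -3.39), in the untreated clone (-4.66 and -5.26) and on clone RA replicate 2 (-5.66). The parental RA arrays were the highest. They were 2.82-fold above the untreated parental arrays, with each of those set no lower than its lowest signal well above background. This is not a minimum, because the untreated level lies near background and depends on the background correction. In the clone the RA difference was -0.60 ± 0.40. With normexp background correction, run on median spot signals, the parental RA difference was 0.04 and that of the clone -0.07.

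Spry2, which encodes a further Sprouty protein, spread too widely in the clone to place. It read -1.70 and -1.64 in untreated parental cells and -1.18 and -1.19 with RA, but -0.87 and -3.90 in the untreated clone and -0.63 and -1.64 in the clone with RA. The RA difference in the clone was 1.25 ± 0.89, and -0.26 without clone untreated replicate 2 and 2.77 without clone untreated replicate 1. Spred1, whose protein brings the RAS inhibitor neurofibromin to the membrane, was the steadiest, with group means from 1.15 to 1.57. Its RA differences were 0.02 ± 0.32 and 0.06 ± 0.32, and both clone pairs lay below the parental pair of the same treatment by -0.39 ± 0.32 and -0.35 ± 0.32.

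Over the 10 genes the median log2 difference was -0.36 for the clone against the parental line untreated, -0.04 under RA, -0.48 for RA in the parental line and -0.25 for RA in the clone. The medians over all genes tested were 0.11, 0.11, 0.02 and 0.02. The counts below stand beside the share of all genes, and nothing is read from them, because these contrasts were in view when the genes were chosen. At a Benjamini-Hochberg adjusted p under 0.05 in the limma fit, the untreated clone had 1 member called higher and 1 lower, where 9.82% of all genes were called (6.13% higher, 3.69% lower). Under RA 3 members were called higher and 2 lower in the clone, where 23.2% of all genes were called (12.9% higher, 10.2% lower). RA in the parental line gave 0 called members either way, where 1.12% of all genes were called (0.529% higher, 0.590% lower). RA in the clone gave 2 higher and 1 lower, where 4.63% of all genes were called (2.58% higher, 2.05% lower).

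For the difference between the RA responses, 2 members were called higher and 0 lower, where 0.206% of all genes were called (0.122% higher, 0.0838% lower). The average line difference gave 2 higher and 2 lower, where 27.7% of all genes were called (16.1% higher, 11.6% lower). The average RA response gave 1 higher and 1 lower, where 5.83% of all genes were called (3.13% higher, 2.70% lower). A log2 difference of at least 1 in size, 2-fold, was read for 3, 5, 4 and 5 members in the 4 single comparisons, where it held for 23.1%, 36.9%, 13.7% and 22.0% of all genes. It held for 3 members in the difference between the RA responses (25.2% of all genes), for 4 in the average line difference (26.4%) and for 1 in the average RA response (11.5%). Groups did not overlap for 7, 8, 8 and 7 members in the 4 single comparisons, where 60.1%, 58.7%, 44.2% and 52.8% of all genes did not overlap. The RA comparisons share their untreated arrays with the comparison of the untreated lines.

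For the 3 members with the widest range of group means, the genes with the most similar profile were sought among 12218 named genes above background on all 8 arrays. Pearson's r over the 8 arrays is given as a description, since the arrays fall into 4 groups and share 1 slide. Ptprr was most like Asap1, which encodes a GTPase-activating protein of ARF (r = 0.996), Etv1, an Ets factor activated by ERK (r = 0.991), and Nsg2, a neuronal vesicle protein gene (r = 0.989). Etv1 group means were 3.48 and 2.56 in the parental line without and with RA and 3.47 and 4.55 in the clone, a narrower range than that of Ptprr. Dusp26 was most like Plce1, which encodes a RAS-binding phospholipase C (r = 0.988), Rnft2 (r = 0.965) and Mpped2 (r = 0.959). Spry1 was most like Sgtb (r = 0.992), Igsf5 (r = 0.991) and Ccn4 (r = 0.991), a secreted matricellular protein gene.

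The other genes of the pathway were taken from 6 lists with 172 genes, of which 149 were tested. Averaged over both treatments, where slide row cancels, 36 were higher and 25 lower in the clone, 40.9% of those tested against 27.7% of all genes. Averaged over both lines, 1 rose and 11 fell with RA, 8.05% against 5.83%. The lists were chosen with earlier results of these data known. All list genes have a symbol, whereas 11079 of the 26262 genes tested have none, so nothing is read from these shares. For the counts per list below, 16.1% of all genes were called higher and 11.6% lower in the average line difference. In the average RA response 3.13% of all genes were called higher and 2.70% lower. Adjusted p-values below come from limma over all 26262 genes. Each named line difference was kept under every alternative run unless said otherwise (Spry3 and Dusp9 under RA were not followed across alternatives), whereas the RA calls were not, and without any 1 of the 4 untreated arrays the average RA fit called 0 pathway genes (27 to 37 at an unadjusted p under 0.05).

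**Figure D3:**
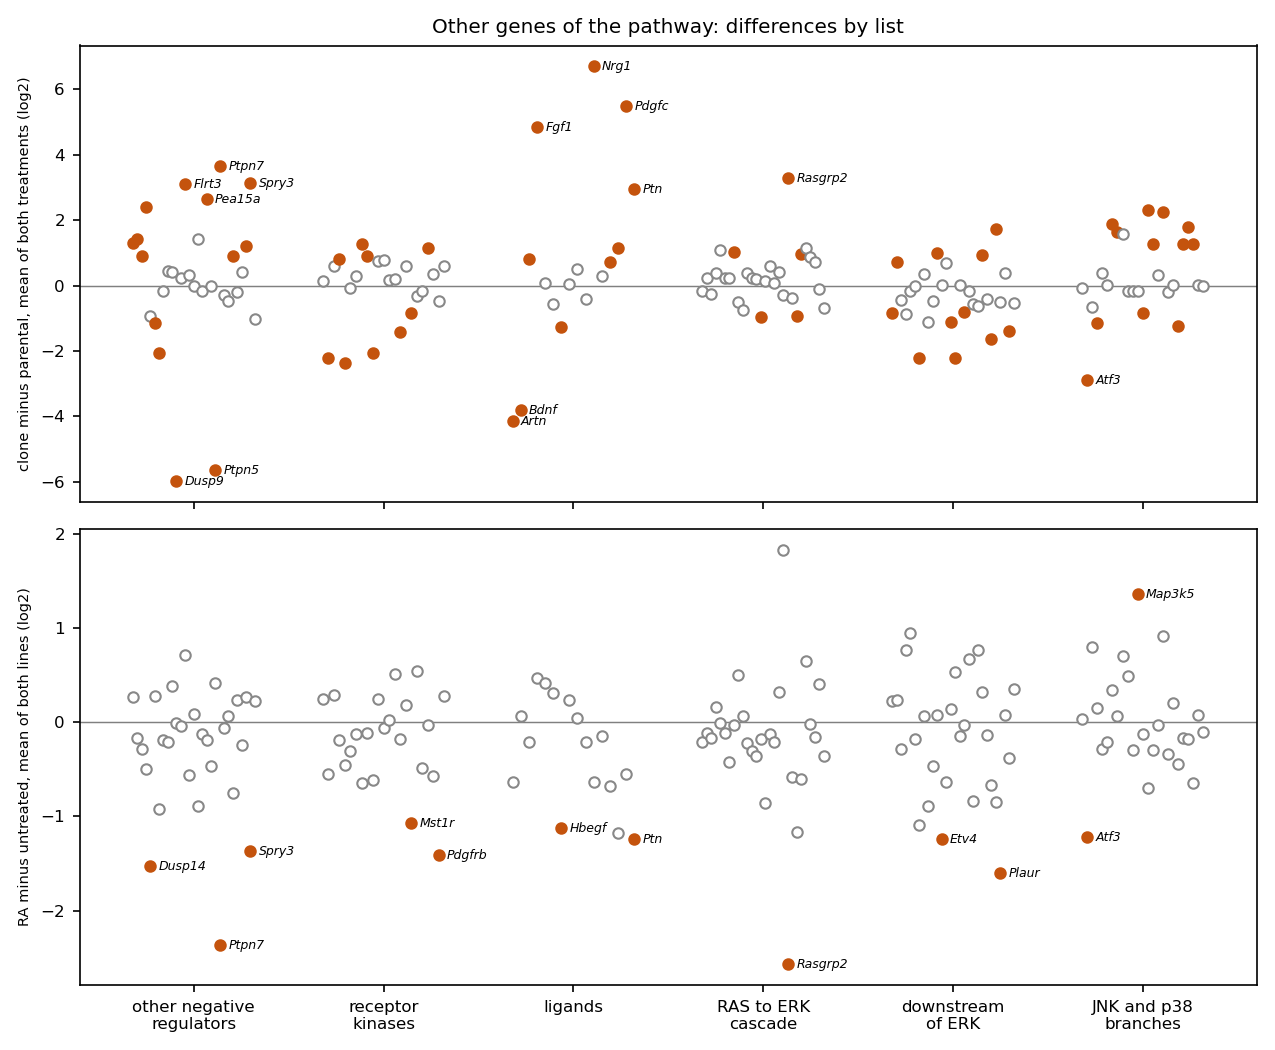
Log2 differences (y axes) of 149 other genes of the pathway in 6 lists (x axis), as clone minus parental averaged over both treatments (upper panel) and RA minus untreated averaged over both lines (lower panel). Each point is a gene, filled where the limma adjusted p was under 0.05, and genes with large differences are named. Ligand genes span the widest range between the lines, and 11 of 12 filled points in the lower panel lie below 0.

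Ligand genes held the largest line difference among the 149 genes. Of 16 tested, 7 were higher and 3 lower in the clone on average (median 0.40). Nrg1, which encodes the ErbB ligand neuregulin 1, had group means of -2.77 and -4.75 in the parental line without and with RA and of 2.61 and 3.30 in the clone. It was 105-fold higher in the clone on average (6.71 ± 0.23, adjusted p = 1.15e-05). Pdgfc, a ligand gene of PDGF receptors, was higher by 5.50 ± 0.20 (adjusted p = 1.31e-05) and Fgf1, a fibroblast growth factor gene, by 4.86 ± 0.17 (adjusted p = 1.31e-05). Bdnf, the ligand gene of TrkB, was lower by -3.79 ± 0.21 (adjusted p = 5.09e-05). Artn, which encodes the RET ligand artemin, was lower in the untreated clone by -4.83 ± 0.34 (adjusted p = 0.000451), with 1 of 2 clone arrays well above background. With RA, Ptn, the pleiotrophin gene, fell in the parental line (-2.48 ± 0.29, adjusted p = 0.0161) and read 3.56 in both clone groups. Hbegf, a ligand gene of the EGF receptor, fell in the clone (-1.67 ± 0.25, adjusted p = 0.0233).

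Receptor tyrosine kinase genes went both ways, 4 higher and 5 lower of 23 in the clone on average (median 0.19). Egfr, the EGF receptor gene, was lower by -2.37 ± 0.26 (adjusted p = 0.000788), Axl by -2.22 ± 0.21 (adjusted p = 0.000474) and Fgfr3 by -2.06 ± 0.24 (adjusted p = 0.00109). Ltk, the relative of ALK, was lower by -1.42 ± 0.24 (adjusted p = 0.00542). The neurotrophin-3 receptor gene Ntrk3 was higher in the untreated clone (1.49 ± 0.29, adjusted p = 0.0222), a call lost in 6 of 16 alternatives. Pdgfrb, a PDGF receptor gene, fell with RA in the clone (-2.68 ± 0.41, adjusted p = 0.0233).

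In the core of the cascade, of 28 genes from RAS to ERK, 3 were higher and 2 lower in the clone on average (median 0.22), and 1 fell with RA. That gene was Rasgrp2, an exchange factor for RAS-family GTPases, which fell by 2.57 ± 0.23 on the log2 scale on average (adjusted p = 0.00708). Its group means were 0.69 and -1.80 in the parental line and 4.06 and 1.41 in the clone, so it also stood 9.83-fold higher in the clone (3.30 ± 0.23, adjusted p = 0.000119). The adaptor gene Shc1 was higher (0.98 ± 0.28, adjusted p = 0.0389) and Rras2 lower (-0.94 ± 0.28, adjusted p = 0.0463), calls lost in 8 and 11 of 15 alternatives.

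Among 29 genes listed as other negative regulators of ERK signalling, 10 were higher and 4 lower in the clone on average (median 0.32). Spry3, a further Sprouty gene, was not well above background in parental cells with RA, and under RA the clone was at least 11.2-fold higher. No p-value is given for this comparison, which was added after its values were seen. Pea15a, which encodes a protein that holds ERK in the cytoplasm, was higher by 2.64 ± 0.18 (adjusted p = 0.000106). Flrt3, a membrane partner of FGF receptors, was 8.57-fold higher (adjusted p = 0.000167). It is counted in this list, but its level is not read as that of an ERK inhibitor. Ptpn5 and Dusp9 were not well above background in either clone group. Ptpn5, the neuronal phosphatase STEP, was at least 19.8-fold lower untreated and at least 26.2-fold lower under RA. Dusp9, which encodes the cytoplasmic ERK phosphatase MKP-4, was at least 67.7-fold and at least 23.5-fold lower. Both passed the filter on dim signal only through the parental arrays, so no p-value is given and no call is read for them. The folds given as at least rest on a floor that is not a detection limit.

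With RA, 3 of these 29 were called lower on average and 0 higher. Ptpn7, a tyrosine phosphatase gene with a kinase interaction motif like Ptprr, fell by 2.36 ± 0.31 on the log2 scale (adjusted p = 0.0148), with 1 of 2 parental RA arrays well above background. Dusp14 also fell (-1.53 ± 0.29, adjusted p = 0.0332). The other called gene was Spry3, for which no size is given, since it was well above background on 1 of 2 untreated parental arrays and on 0 of 2 with RA. In the clone Dusp2, a nuclear phosphatase gene induced early by growth factors, fell (-1.89 ± 0.32, adjusted p = 0.029). Flrt3, not read as an inhibitor, rose there (2.02 ± 0.33, adjusted p = 0.0269).

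Downstream of ERK, 4 of 28 genes were higher and 7 lower in the clone on average (median -0.46). Phlda1, a target gene of ERK, was higher (1.73 ± 0.26, adjusted p = 0.00352), whereas the Ets factor gene Elk3 (-2.21 ± 0.28, adjusted p = 0.0015), the immediate early gene Nr4a1 (-1.62 ± 0.21, adjusted p = 0.00179) and Rps6ka3, an ERK-activated kinase gene (-1.39 ± 0.22, adjusted p = 0.00405), were lower. Under RA Etv1 was higher in the clone (1.99 ± 0.26, adjusted p = 0.00264). With RA, 2 of 28 fell on average and 0 rose, Plaur, the urokinase receptor gene (-1.60 ± 0.24, adjusted p = 0.0178), and Etv4, an Ets factor gene induced by ERK (-1.24 ± 0.23, adjusted p = 0.0318). Etv4 group means were 5.01 and 4.33 in the parental line without and with RA and 5.59 and 3.80 in the clone.

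In the JNK and p38 branches 8 of 25 genes were higher and 4 lower in the clone on average (median 0.02). Mapk10, the neuronal JNK gene, was higher by 2.32 ± 0.21 (adjusted p = 0.000394), the p38 delta gene Mapk13 by 2.24 ± 0.24 (adjusted p = 0.000821) and the upstream kinase gene Map3k1 by 1.64 ± 0.20 (adjusted p = 0.00141). Atf3, a stress-induced transcription factor gene, was lower by -2.88 ± 0.20 (adjusted p = 0.00011). With RA it fell in the clone (-2.87 ± 0.28, adjusted p = 0.0117). The kinase gene Map3k5 (ASK1) rose in the clone (2.01 ± 0.34, adjusted p = 0.0294), with adjusted p = 0.372 when the probes of the gene were averaged.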

How the data were processed

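The 8 samples were read in Cy3 on 1 Agilent slide. Per the file headers, Feature Extraction 10.7.3.1 made the intensity values, with background taken off and a spatial trend removed on each array. They were not scaled to each other. The series table's deposited log2 values were checked against the scanner tables, with outlier spots left out. For nearly all probes compared they equal that intensity on the log2 scale less a constant for each array.

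From the scanner tables, log2 intensity minus the array's 75th percentile over non-control spots was computed. Spots marked as outliers were left out, and repeat spots were averaged. A probe entered if 2 or more of the 8 arrays read it well above background, which left 36636 of 55681. Each gene was read by its brightest probe, giving 26262 genes, 15183 of them with a symbol through RefSeq accessions. A model of 4 group means was fitted with limma 3.58.1 in R 4.3.3 (4 residual and 3 prior degrees of freedom). A call is an adjusted p (Benjamini-Hochberg) under 0.05. The fit was also run on simulated data with independent noise. These had no slide row effect and no deviating array, so that run cannot show how the fit handles either. No member lacked an array, and 52 other genes lacked 1.

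The members and lists were chosen with earlier results of these data known. Other genes are named where called, up to 4 per list and comparison by adjusted p, and as the 3 nearest profiles of the 3 members with the widest range. Dusp9 and Spry3 under RA were added after their values were seen. A gene that this rule would name is not reported here. "At least" sets the bright group against, on each dim array, the lowest signal well above background or the probe's own signal, whichever is higher. That floor is not a detection limit, so these folds are not strict minimums. On parental untreated replicate 2 the lowest such signal was -6.58, yet Dusp5 at -5.44 was not well above background. Normexp (offset 50) was run on median spot signals. Promoter coordinates are those of RefSeq's GRCm38.p6 table.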

Additional observations from a re-analysis of the deposited data

Results flagged for a closer look

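For 3 members every RA array lay on one side of the untreated arrays in the parental line and on the other side in the clone, and no test of the difference is given, because the members were chosen with these values known. Limma called the difference for Ptprr and Dusp26 and not for Dusp5, which is not read as a test for the same reason. The RA difference of the clone minus that of the parental line was 4.80 for Ptprr (-2.05 parental, 2.75 clone), 4.50 for Dusp26 (-1.10 and 3.40) and -2.12 for Dusp5 (1.52 and -0.60). The Dusp5 probe was not well above background on 3 of the 8 arrays, and with normexp background correction its values were -0.11, 0.04 and -0.07. Among all 26262 genes, 2136 (8.15%) had such opposite directions. Slide row cannot be told apart from this quantity.

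Of the other genes named, Atf3 passed limma's test of the difference between the RA responses (-3.29, adjusted p = 0.0417), with 0.42 in the parental line and -2.87 in the clone. The call was lost in 11 of 15 alternatives, whose adjusted p ran from 0.00936 to 0.257. Opposite directions were also seen, without passing that test, for Nrg1 (2.68, adjusted p = 0.0814), Flrt3 (2.62, adjusted p = 0.0875), Etv1 (2.00, adjusted p = 0.0929), Mapk10 (2.03, adjusted p = 0.118), Pea15a (1.20, adjusted p = 0.203), the adaptor gene Gab2 (3.08, adjusted p = 0.271) and Ntrk3 (-0.67, adjusted p = 0.555).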

How the results depend on the processing

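Normexp background correction lowered the genes called from 2578 to 1213 between the untreated lines, from 6081 to 3660 between the lines under RA, from 294 to 56 for RA in the parental line, from 1216 to 439 for RA in the clone, from 54 to 0 for the difference between the RA responses (2454 at an unadjusted p under 0.05), from 7276 to 4474 for the average line difference and from 1530 to 472 for the average RA response. Pathway genes called went from 4 to 1 for RA in the parental line, from 1 to 0 for the difference between the responses and from 12 to 6 for the average RA response, and members past 2-fold from 4 to 2 for RA in the parental line.

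Without a filter the same comparisons, in that order, gave 1386, 3703, 17, 0 (5047 at an unadjusted p under 0.05), 0 (3178 at an unadjusted p under 0.05) and, for the average RA response, 120 genes. Pathway genes were then 17 between the untreated lines, 0 for RA in either line and for the difference, and 1 for the average RA response. With probes above background on all 8 arrays, genes were 635 for RA in the parental line, 1896 (18 pathway genes) when the clone had RA, and the difference had 311 (6). With only the groups compared, genes were 2628 (26 pathway genes) between the lines under RA and 0 (0) for RA in the clone (5362 at an unadjusted p under 0.05), and pathway genes 1 for RA in the parental line. The slide side as a block gave 21 genes and 0 pathway genes for the difference, and quantile normalization 0 pathway genes.

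Leaving out 1 array at a time, genes called ran from 785 to 3179 between the untreated lines, 3817 to 7285 under RA, 0 to 655 for RA in the parental line, 0 to 3045 for RA in the clone, 0 to 1016 in the difference, 4477 to 9067 for the average line difference and 0 to 3209 for the average RA response. The highest count in each RA comparison came without clone RA replicate 2, tied with clone RA replicate 1 for RA in the parental line. Pathway genes ran from 11 to 31, 33 to 45, 0 to 5, 0 to 15, 0 to 5, 42 to 63 and 0 to 16 in that order, and members past 2-fold from 2 to 6, 5 to 6, 3 to 4, 4 to 5, 3 to 4, 2 to 5 and 1 to 3. A group left with 1 array is assumed to vary like the others.

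Among members, Ptprr, Spry4 and Dusp26 kept the sign of their RA difference in each line under every alternative, as did Dusp4, Dusp6 and Spry1. Dusp5 was lower in the untreated clone with normexp (-0.38) against 0.46, and Ptprr under RA in the parental line was -1.48 against -2.05. The cause was not tested. Signal near background limits Dusp5, Spry3, Ptpn5 and Dusp9. The labels give no replicate numbers that groups share. The fit with slide side as a block is the only blocked fit, since each side held 1 array of every group.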
